A study of Homo sapiens with 12 samples.

Results

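The behaviour of 6 genes that mark renal tubule epithelium was followed after silencing of CBX7: the transcription factors PAX8 and PAX2, the brush border peptidases MME and ANPEP, the water channel AQP1 and the endocytic receptor LRP2. They were chosen by name as a marker set, and all 6 of 6 are listed among the 58735 genes measured in 786-O and the 29890 measured in 5637. RNA-seq covered 12 libraries, with 3 shCBX7 libraries (genotype labelled as the case) and 3 sh control libraries in 786-O, a clear cell renal carcinoma line, and 3 shCBX7 and 3 sh control libraries in 5637, a bladder carcinoma line. Each line is an established human cancer line grown in RPMI-1640 with serum, no further treatment is labelled, and the labels do not give the hairpin sequence, the time after its delivery or whether an arm was grown as several cultures. The p-values therefore reflect library-to-library spread alone, and that spread may be technical. Values are FPKM, read fragments divided by gene length and by a library total. Levels of different genes within a line can be set side by side, but their order depends on the gene lengths used.

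PAX8 and PAX2 are paired-box transcription factors that specify the kidney lineage in the embryo. PAX8 stays on in the adult tubule and in most clear cell renal carcinomas, where it serves as a diagnostic marker of renal origin. The proximal tubule carries a dense brush border, on which MME (neprilysin, CD10) and ANPEP (aminopeptidase N, CD13) trim filtered peptides. AQP1 lets water cross the membrane of the proximal tubule and descending thin limb, and LRP2 (megalin) takes up filtered proteins together with CUBN (cubilin). CBX7 is a chromobox subunit of a Polycomb complex that binds methylated histone H3 and keeps developmental genes silent.

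The promoter windows of the 4 members with the higher levels in 786-O are shown because PAX8 fell there while MME and ANPEP rose, and PAX2 is the close relative of PAX8. They are RefSeq sequences on GRCh38.p14, each running 5′ to 3′ from 250 bases before to 50 after an annotated start. All 6 members were matched in that table by symbol, which lists 2 windows for PAX2, 4 for MME and 2 for ANPEP. The first listed window is shown, and for ANPEP both. The upstream start of ANPEP is known for its use in myeloid cells and fibroblasts and the start near the coding sequence for its use in epithelia. Capitals mark matches to 2 of the 4 motifs searched on both strands: GGGCGG (the GC box) and GTTAAT (a homeodomain motif). The other motifs were TATAAA (the TATA box) and TGANTCA (the AP-1 site).
PAX8, chr2:113278872-113279171, minus strand: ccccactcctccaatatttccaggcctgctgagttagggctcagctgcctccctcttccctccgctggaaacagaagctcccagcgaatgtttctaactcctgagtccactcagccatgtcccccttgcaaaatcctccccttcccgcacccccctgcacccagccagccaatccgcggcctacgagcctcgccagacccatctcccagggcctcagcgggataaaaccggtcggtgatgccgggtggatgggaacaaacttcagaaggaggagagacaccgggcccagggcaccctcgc
PAX2, chr10:100735146-100735445, plus strand: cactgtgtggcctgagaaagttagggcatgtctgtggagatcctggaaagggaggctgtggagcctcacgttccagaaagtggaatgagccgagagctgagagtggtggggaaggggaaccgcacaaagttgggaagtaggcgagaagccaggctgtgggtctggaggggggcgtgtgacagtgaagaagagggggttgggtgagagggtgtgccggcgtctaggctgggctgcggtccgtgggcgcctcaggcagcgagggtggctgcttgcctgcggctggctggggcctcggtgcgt
MME, chr3:155079422-155079721, plus strand: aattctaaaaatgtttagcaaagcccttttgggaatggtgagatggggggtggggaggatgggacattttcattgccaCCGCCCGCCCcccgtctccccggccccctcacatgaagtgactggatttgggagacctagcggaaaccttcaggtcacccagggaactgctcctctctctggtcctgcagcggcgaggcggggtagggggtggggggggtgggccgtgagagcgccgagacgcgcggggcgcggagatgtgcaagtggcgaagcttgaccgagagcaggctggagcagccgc
ANPEP upstream start, chr15:89814803-89815102, minus strand: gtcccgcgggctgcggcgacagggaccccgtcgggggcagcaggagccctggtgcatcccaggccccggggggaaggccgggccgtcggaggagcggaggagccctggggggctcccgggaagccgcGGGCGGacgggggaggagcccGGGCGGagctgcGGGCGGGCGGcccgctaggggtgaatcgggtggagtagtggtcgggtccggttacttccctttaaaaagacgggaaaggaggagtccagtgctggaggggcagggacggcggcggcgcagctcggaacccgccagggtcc
ANPEP start near the coding sequence, chr15:89806579-89806878, minus strand: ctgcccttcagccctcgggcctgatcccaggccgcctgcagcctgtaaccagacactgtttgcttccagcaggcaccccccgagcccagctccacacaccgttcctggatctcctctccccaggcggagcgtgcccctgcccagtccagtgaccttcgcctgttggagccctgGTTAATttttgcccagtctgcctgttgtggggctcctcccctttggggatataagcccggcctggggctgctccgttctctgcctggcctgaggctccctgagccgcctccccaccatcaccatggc

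The PAX8 and PAX2 windows shown held none of the 4 motifs in these letters. The MME window shown held 2 overlapping GGGCGG matches on the reverse strand, and the upstream ANPEP window held 4 GGGCGG matches, 2 of them overlapping. The ANPEP window near the coding sequence held 1 GTTAAT, 77 bases before the start. The MME windows not shown held 3, 2 and 0 GGGCGG and 30, 27 and 19 CG dinucleotides, and the other PAX2 window held none of the motifs. In listed order, MME windows 1 (the one shown) and 2 overlap, as do windows 2 and 3, so their CG counts share bases. Both GGGCGG matches of window 3 are also counted in window 2, while those of window 1 lie outside window 2. Of 35116 promoter windows of the same length, 45% held GGGCGG, 6.88% GTTAAT, 11.5% TATAAA and 7.71% TGANTCA. Among the windows shown, CG dinucleotides numbered 13 in the PAX8 window, 14 in PAX2, 19 in MME and 32 and 10 in the upstream and coding-proximal ANPEP windows, against a median of 14 over all windows. A match describes the letters only, and binding was not measured.

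The silenced gene was lower in the shCBX7 libraries of both lines. In 786-O, CBX7 stood at 1.01, 0.892 and 1.07 FPKM in shCBX7 libraries and at 1.63, 1.75 and 1.49 FPKM in sh control libraries, which left 61.0% of the control mean (log2 change -0.40, SE 0.076, limma adjusted p = 0.00364). In 5637 it stood at 83.3% of the control mean (log2 change -0.18, SE 0.046, limma adjusted p = 0.0188). The 5637 value missed the threshold when either shCBX7 library 2 (limma adjusted p = 0.0606) or sh control library 3 (limma adjusted p = 0.0586) was left out. Log2 changes are shCBX7 minus sh control and, except where a pseudocount of 0.1 or voom on reads is named, of FPKM + 1. The added 1 understates the change of low genes. Reads recovered from the FPKM steps came to 16384151 to 18868874 per library in 786-O and 18037549 to 29671318 in 5637. Titles of 2 sh control libraries of 5637 carry a different number from the line, although their cell line label is 5637, and the table columns call the arms si. None of the 15 library pairs within each line was identical.

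Of the 6 members, PAX8 fell while MME and ANPEP rose in 786-O; PAX2 lay lower in every shCBX7 library without passing the test, and AQP1 and LRP2 were at or near 0. A mean of at least 0.5 FPKM, needed for the test, was reached by 4 members, and 3 of these 4 were called at a limma adjusted p under 0.05. Over all 13220 genes tested in 786-O, 51% were called, 24.7% higher and 26.2% lower. With so many genes called throughout, a count of 3 in 4 does not set the members apart. The median log2 change was -0.01 over all genes tested and 0.10 over the 4 members. The arms did not overlap for all 4, against 60.3% of all tested genes. In bulk RNA, fewer cells expressing a gene and less of its RNA per cell cannot be told apart.

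PAX8 (ENSG00000125618) is a minus-strand gene at 113215997 to 113278950 of chromosome 2 in GENCODE release 29 (GRCh38). It had 30.1, 30.1 and 30.8 FPKM in shCBX7 libraries, against 39.6, 37.0 and 36.9 FPKM in sh control libraries. The highest silenced library stayed well below the lowest control, and the silenced libraries lay close together. The means were 30.3 ± 0.396 FPKM in shCBX7 cells and 37.8 ± 1.54 FPKM in sh control cells (SD, n = 3 each), so 80.1% of the control level remained. Its log2 change was -0.31 (SE 0.046, limma adjusted p = 0.00104). With 3710 to 4219 reads per shCBX7 library and 4512 to 5013 per sh control library, PAX8 was the most deeply covered member. An antisense gene, PAX8-AS1, shares 685 of the 7400 exon bases of PAX8 and had 0.149 to 0.156 FPKM in shCBX7 libraries and 0.164 to 0.232 FPKM in sh control libraries. Its level was a small part of that of PAX8, and the strand setting of the counting is not given in the sources used here.

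PAX2 (ENSG00000075891, chromosome 10 from 100735603 to 100829941, plus strand) is the close relative that acts beside PAX8 in nephric duct formation. It had 0.895, 0.701 and 0.836 FPKM in shCBX7 libraries and 1.19, 1.26 and 0.971 FPKM in sh control libraries. The arms did not overlap, but the highest silenced and the lowest control library were close. Means were 0.811 ± 0.0993 FPKM in shCBX7 cells and 1.14 ± 0.15 FPKM in sh control cells (SD, n = 3 each), or 71.1% of control. The log2 change of -0.24 (SE 0.088, 95% interval -0.445 to -0.0341) missed the threshold after adjustment over all genes (limma adjusted p = 0.0539). Only 73 to 106 reads per shCBX7 library and 100 to 144 per sh control library lie behind these values, and without the sh control library numbered 3 the limma adjusted p was 0.042.

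PAX8 made up nearly all PAX family RNA in 786-O. Its share of the summed FPKM of the 9 PAX genes was 92.2 to 92.9% in shCBX7 libraries and 92.1 to 93.2% in sh control libraries, ranges that overlap. PAX8 stood 33.6 to 42.9 times above PAX2 in shCBX7 libraries and 29.4 to 38.1 times above it in sh control libraries. Of the 4 PAX genes tested in 786-O, PAX8 and PAX9 were lower and PAX2 and PAX6 were not called. PAX9 averaged 0.781 FPKM in shCBX7 cells and 1.16 FPKM in sh control cells (log2 change -0.28, limma adjusted p = 0.0226). PAX6 averaged 0.806 FPKM in shCBX7 cells and 0.624 FPKM in sh control cells (log2 change 0.15, limma adjusted p = 0.17).

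**Figure D1:**
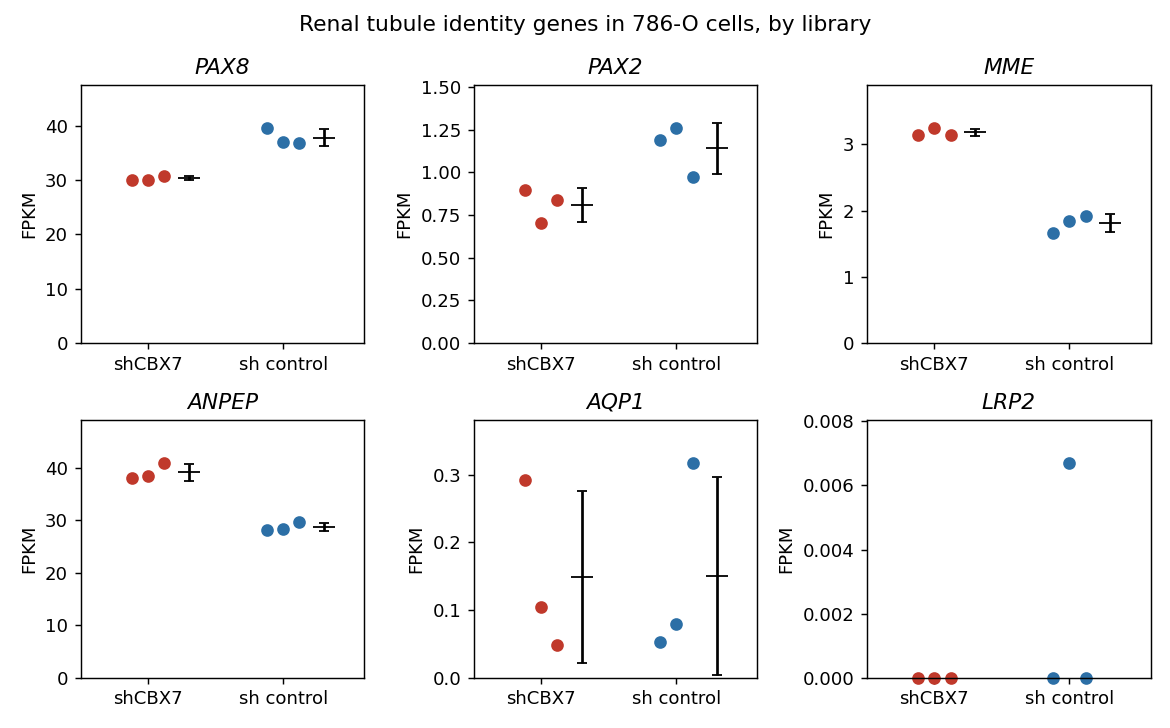
FPKM of the 6 renal tubule identity genes in 786-O, 1 panel per gene with its own axis from 0. Points are single libraries, shCBX7 (red) left of sh control (blue), and bars are mean ± SD (n = 3), left out for LRP2. The 3 shCBX7 points lie below the control points for PAX8 (30.1 to 30.8 against 36.9 to 39.6 FPKM) and above them for MME and ANPEP.

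Both peptidases rose. MME (ENSG00000196549, chromosome 3 from 155024124 to 155183729, plus strand) is a zinc endopeptidase that cleaves natriuretic peptides, bradykinin and other small peptides. It had 3.15, 3.25 and 3.15 FPKM in shCBX7 libraries and 1.66, 1.85 and 1.92 FPKM in sh control libraries. The arms were far apart relative to their spread. Means of 3.19 ± 0.0602 FPKM in shCBX7 cells and 1.81 ± 0.137 FPKM in sh control cells (SD, n = 3 each) give a 1.76-fold higher level, with a log2 change of 0.58 (SE 0.063, limma adjusted p = 0.000227). This was the largest fold among the called members, and it rests on 522 to 575 reads per shCBX7 library and 266 to 326 per sh control library. MME-AS1, which shares 214 of the 9620 exon bases of MME on the other strand, was at 0 in every 786-O library.

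ANPEP (ENSG00000166825, chromosome 15 from 89784889 to 89815401, minus strand) removes single residues from the N-terminus of peptides. It had 38.0, 38.5 and 41.0 FPKM in shCBX7 libraries and 28.2, 28.4 and 29.7 FPKM in sh control libraries. No control library reached the lowest silenced one. The means were 39.2 ± 1.6 FPKM in shCBX7 cells and 28.8 ± 0.825 FPKM in sh control cells (SD, n = 3 each), 1.36-fold higher, with a log2 change of 0.43 (SE 0.048, limma adjusted p = 0.000264). Reads numbered 3127 to 3558 per shCBX7 library and 2293 to 2533 per sh control library.

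The ratio of ANPEP to PAX8 was 1.26, 1.28 and 1.33 in shCBX7 libraries and 0.712, 0.768 and 0.804 in sh control libraries. By FPKM, ANPEP was thus the highest member in each silenced library and PAX8 in each control library. That order depends on the gene lengths used, 7400 bases for PAX8 and 4871 for ANPEP. In reads, PAX8 stood above ANPEP in every library of both arms. ANPEP stood 11.8 to 13.0 times above MME in shCBX7 libraries and 15.3 to 17.0 times above it in sh control libraries, since MME rose by the larger factor. Below the leading pair the order was the same in both arms, MME above PAX2, PAX2 above AQP1 and AQP1 above LRP2. No 2 neighbours in this order overlapped within an arm.

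AQP1 (ENSG00000240583, chromosome 7 from 30911694 to 30925516, plus strand) had 0.292, 0.105 and 0.049 FPKM in shCBX7 libraries and 0.0523, 0.0794 and 0.318 FPKM in sh control libraries. Each arm held 1 library well above the other two, and the arms overlapped fully. These values are 3 to 19 reads per shCBX7 library and 3 to 18 per sh control library, and a difference was not detectable beyond their spread. Without the filter on low values its log2 change was 1.1e-04 (SE 0.115). A gene on the same strand that shares 910 of its 3435 exon bases, AC004691.2, was at 0 throughout.

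LRP2 (ENSG00000081479, chromosome 2 from 169127109 to 169362685, minus strand) had 0 reads in all 3 shCBX7 libraries, which allows up to 0.00973 to 0.0111 FPKM per library at a floor of 3 reads. In sh control libraries it had 0, 0.00671 and 0 FPKM, the middle value being 2 reads. No fold was computed, since both arms lay at or under that floor. That floor covers counting error only, and reads without molecular identifiers are not independent molecules. As a check of the label, 786-O therefore carried PAX8 and ANPEP at high level, MME and PAX2 at low level, and AQP1 and LRP2 at or near 0.

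CUBN, the partner of LRP2 in protein uptake, was looked up after its values were seen. It had 17, 15 and 16 reads in shCBX7 libraries and 3, 6 and 1 reads in sh control libraries. The arms did not overlap, though every value was below 0.07 FPKM. Without the filter on low values its log2 change was 0.07 (limma adjusted p = 0.0421), in a fit that called 22% of 27777 genes, and the arms of 35% of those genes did not overlap.

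By exact permutation (two-sided), PAX8, PAX2, MME and ANPEP each had p = 0.1 in 786-O, the smallest reachable with 3 libraries per arm. The plot of alternatives in 786-O shows how the changes of these 4 genes depended on the processing. PAX8, MME and ANPEP kept their direction and their call in all 14 alternatives run, including each library left out in turn. PAX2 kept its direction in all 13 that could be fitted and was called in 4 of them.

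**Figure D2:**
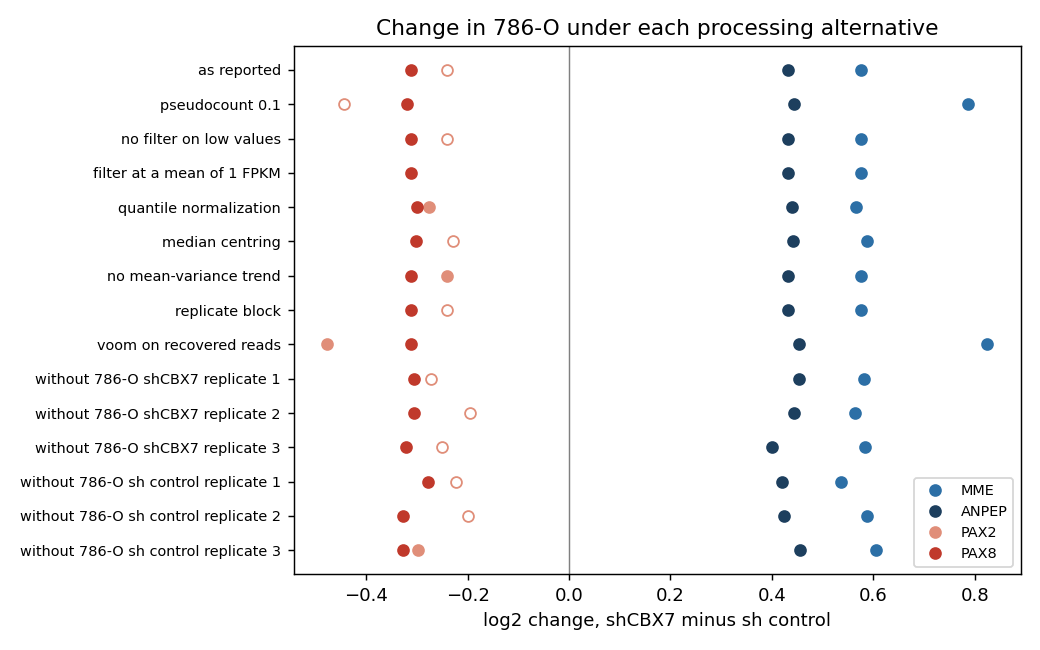
Log2 change of PAX8, PAX2, MME and ANPEP in 786-O (shCBX7 minus sh control, x axis), as reported and under each processing alternative (y axis). Filled points have a limma adjusted p under 0.05 and open points do not. PAX8 stays between -0.327 and -0.278, ANPEP between 0.40 and 0.455 and MME between 0.537 and 0.825, all filled, while PAX2 is open in most settings. The pseudocount 0.1 and voom points are not of FPKM + 1, and the MME value of 0.825 is by voom.

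In 5637 the set looked different. MME was the 1 member with a mean of at least 0.5 FPKM, at 6.68, 6.54 and 6.71 FPKM in shCBX7 libraries and 6.50, 6.75 and 6.62 FPKM in sh control libraries. The arms overlapped, whereas those of 56.4% of tested genes in 5637 did not. Means were 6.65 ± 0.0913 FPKM in shCBX7 cells and 6.62 ± 0.122 FPKM in sh control cells (SD, n = 3 each), and the log2 change was 0.0043 (SE 0.025, limma adjusted p = 0.904) with a 95% interval of -0.0558 to 0.0644. That interval lies below the change of 0.58 seen in 786-O. Of 12689 genes tested in 5637, 44.5% were called, 24.4% higher and 20.2% lower.

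The remaining members were scarce in 5637 and can be described only without the filter, in a fit that called 23.6% of 21233 genes. AQP1 had 0.25, 0.228 and 0.34 FPKM in shCBX7 libraries (17, 23 and 38 reads) and 0.502, 0.494 and 0.459 FPKM in sh control libraries (38, 49 and 48 reads). All silenced libraries lay below all controls, at 56.2% of the control mean, and the log2 change of -0.22 (SE 0.0393, limma adjusted p = 0.0119) was called. PAX8 had 0.137, 0.175 and 0.154 FPKM in shCBX7 libraries and 0.129, 0.0795 and 0.106 FPKM in sh control libraries, which do not overlap (log2 change 0.06, limma adjusted p = 0.111).

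LRP2 in 5637 had 0.14, 0.161 and 0.153 FPKM in shCBX7 libraries and 0.17, 0.183 and 0.172 FPKM in sh control libraries. These arms did not overlap either, and the change was not called (log2 change -0.03, limma adjusted p = 0.268). Such separation was common, since the arms of 38.4% of all genes with any reads in 5637 did not overlap. ANPEP had 0.0757 to 0.114 FPKM in shCBX7 libraries and 0.0653 to 0.101 FPKM in sh control libraries, and PAX2 had 2 to 4 reads per library in each arm; both overlapped between arms. The order of levels in shCBX7 cells was MME, AQP1, PAX8, LRP2, ANPEP and PAX2, with PAX8 and LRP2 overlapping. In sh control cells LRP2 stood above PAX8, and PAX8 and ANPEP overlapped.

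**Figure D3:**
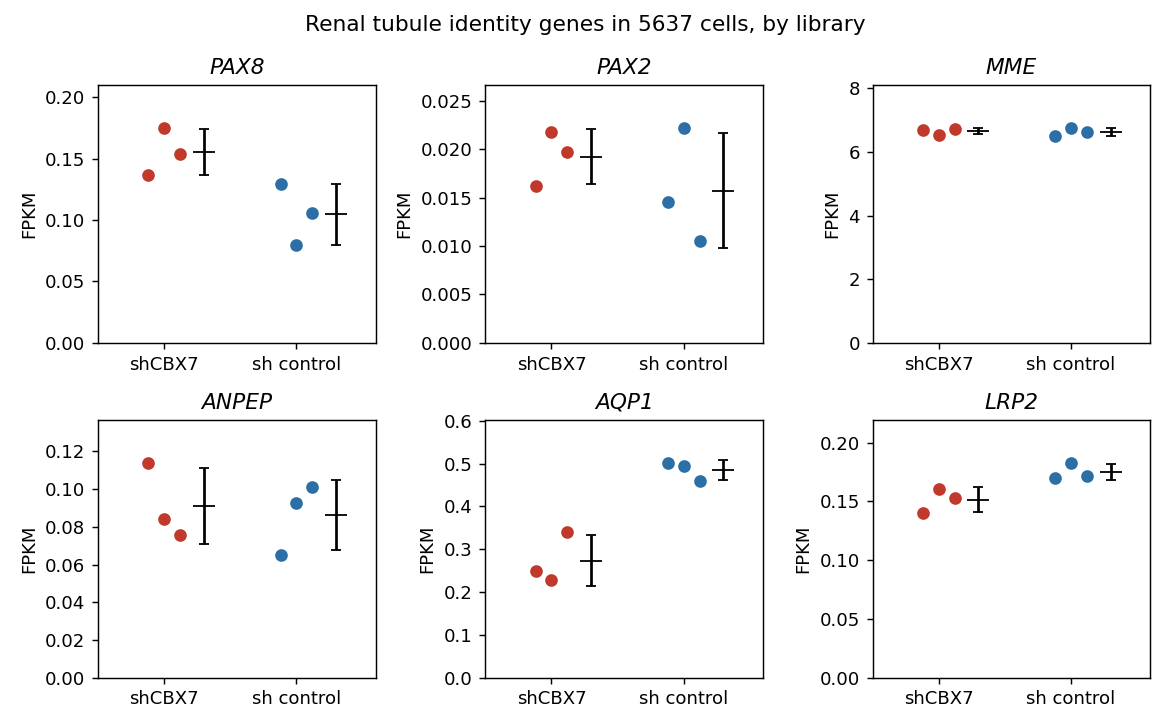
FPKM of the same 6 genes in 5637, drawn as for 786-O with shCBX7 (red) left of sh control (blue), mean ± SD beside the points (n = 3). MME sits near 6.6 FPKM in both arms, the other 5 genes lie near or below 0.5 FPKM, and AQP1 is lower in all shCBX7 libraries (0.228 to 0.34 against 0.459 to 0.502 FPKM).

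The change of MME differed between the lines. In the interaction term of 1 limma fit over all 12 libraries, which called 53.3% of 12777 genes (24.3% higher and 29% lower), the change in 786-O minus that in 5637 was 0.57 for MME (SE 0.055, limma adjusted p = 5.53e-06), and this call held in the 18 alternatives run. MME is the member whose comparison rests on a well-measured level in both lines. Silencing was unequal, with CBX7 at 61.0% of control in 786-O and 83.3% in 5637, and its part in the MME difference was not tested. PAX8 and ANPEP were under 0.2 FPKM in every library of 5637 and entered this fit through their level in 786-O. Their differences of -0.37 and 0.43 on the FPKM + 1 scale mostly repeat their changes in 786-O and are given as values only. With a pseudocount of 0.1 the PAX8 difference was -0.639, against a change of -0.319 in 786-O. The mean of PAX2 over the 12 libraries was below 0.5 FPKM, and without the filter, in a fit that called 31.2% of genes, its difference of -0.24 has the same limit. AQP1 (0.22, limma adjusted p = 0.252) and LRP2 (0.03, limma adjusted p = 0.271) were not called in that fit. The tables of the lines were normalized separately, so levels of the lines stand side by side without a test.

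**Figure D4:**
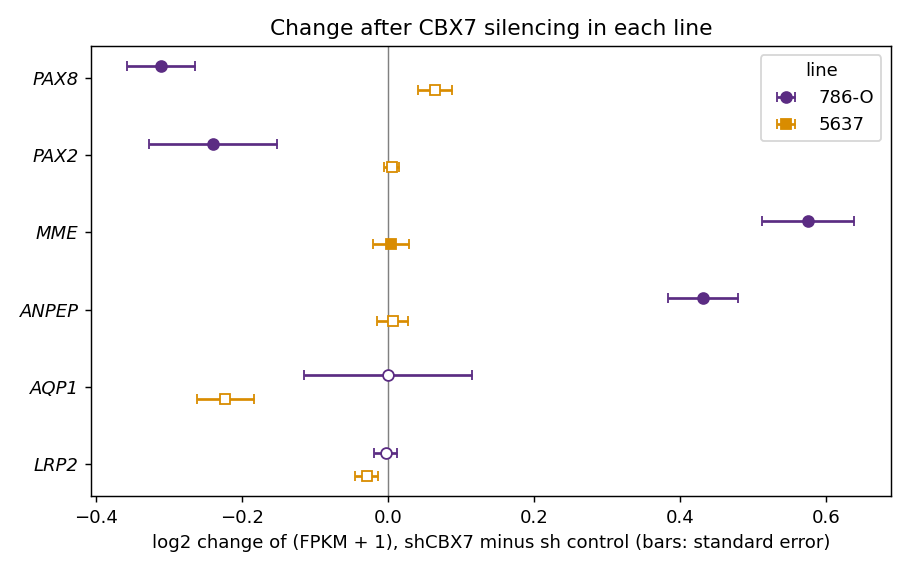
Log2 change of FPKM + 1 (shCBX7 minus sh control, x axis) for each member (y axis) in 786-O (circles) and 5637 (squares), bars showing the standard error. Filled symbols passed the low-value filter and open ones come from the fit without it; filled does not mean called. MME and ANPEP lie at 0.58 and 0.43 in 786-O and near 0 in 5637, and AQP1 lies at -0.22 in 5637.

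Genes with related roles were examined in 786-O. All counts of lists there stand against 51% called of all genes tested, 24.7% higher and 26.2% lower, with a median log2 change of -0.01. Of 12 brush border peptidases, 5 were tested, 4 rose and 0 fell, with a median log2 change of 0.43. Besides MME and ANPEP, these were DPP4, which clips dipeptides from peptide hormones, and GGT1, which starts the breakdown of glutathione. DPP4 averaged 35.7 FPKM in shCBX7 cells and 27.8 FPKM in sh control cells (log2 change 0.35, limma adjusted p = 0.00109). GGT1 averaged 49.1 FPKM in shCBX7 cells and 35.4 FPKM in sh control cells (log2 change 0.47, limma adjusted p = 0.00189), although reads may be split with its near-identical copies. ENPEP, the aminopeptidase that acts on angiotensin, averaged 2.72 FPKM in shCBX7 cells and 3.09 FPKM in sh control cells and was not called (limma adjusted p = 0.111).

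The relatives of the peptidases did not move as 1 family. The neprilysin family had 2 tested genes of 7, and both rose: MME and ECE1, which makes mature endothelin. ECE1 averaged 63.3 FPKM in shCBX7 cells and 36.6 FPKM in sh control cells (log2 change 0.78, limma adjusted p = 1.24e-05), and it also rose in 5637, with 32.9 FPKM in shCBX7 cells and 28.3 FPKM in sh control cells (log2 change 0.21, limma adjusted p = 0.000223). Among 9 M1 aminopeptidases, 8 were tested, 4 rose and 3 fell (median log2 change 0.13). ERAP1, which trims antigenic peptides in the endoplasmic reticulum, averaged 6.76 FPKM in shCBX7 cells and 4.35 FPKM in sh control cells (log2 change 0.54, limma adjusted p = 0.000355). The cytosolic NPEPPS averaged 3.01 FPKM in shCBX7 cells and 5.75 FPKM in sh control cells (log2 change -0.75, limma adjusted p = 3.72e-05).

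Kidney lineage transcription factors were mixed. Of 20 genes, 12 were tested, 1 rose and 3 fell, with a median log2 change of 0.01. PAX8 was among those that fell. WT1, a factor of the early kidney and of podocytes, averaged 2.65 FPKM in shCBX7 cells and 3.76 FPKM in sh control cells (log2 change -0.38, limma adjusted p = 0.00511). POU3F3, needed in mouse for the loop of Henle, averaged 9.17 FPKM in shCBX7 cells and 7.52 FPKM in sh control cells (log2 change 0.25, limma adjusted p = 0.0109). Among 12 PAX partners and reported targets, 6 were tested, 0 rose and 3 fell (median log2 change -0.22), namely WDR5 and ASH2L, subunits of histone methyltransferase complexes, and WT1. WDR5 averaged 13.9 FPKM in shCBX7 cells and 27.3 FPKM in sh control cells (log2 change -0.92, limma adjusted p = 1.37e-05).

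The endocytic apparatus around LRP2 had 4 tested genes of 8, of which 0 rose and 3 fell (median log2 change -0.53), against 26.2% lower of all genes tested. LRPAP1, the chaperone that escorts LRP2 and related receptors to the surface, had 9.10, 8.69 and 8.94 FPKM in shCBX7 libraries and 20.7, 16.8 and 17.8 FPKM in sh control libraries. All silenced libraries lay far below the controls (log2 change -0.97, SE 0.076, limma adjusted p = 4.82e-05). The phosphatase OCRL averaged 3.23 FPKM in shCBX7 cells and 4.18 FPKM in sh control cells (log2 change -0.29, limma adjusted p = 0.00309). DAB2, an adaptor, was not called, at 10.7 FPKM in shCBX7 cells and 10.4 FPKM in sh control cells (limma adjusted p = 0.575). Of the 13 genes of the LDL receptor family, 10 were tested, 2 rose and 3 fell (median log2 change -0.08). LRP10 fell to 19.8 FPKM in shCBX7 cells against 37.9 FPKM in sh control cells (log2 change -0.90, limma adjusted p = 9.21e-06).

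Transport and metabolic genes were largely below the filter. Of 23 proximal tubule transporters and their helpers, 6 were tested, 2 rose and 2 fell (median log2 change 0.05). ATP1B1, the beta subunit of the sodium pump, averaged 65.5 FPKM in shCBX7 cells and 46.1 FPKM in sh control cells (log2 change 0.50, limma adjusted p = 0.000156). CA2, the cytosolic carbonic anhydrase, averaged 22.4 FPKM in shCBX7 cells and 41.8 FPKM in sh control cells (log2 change -0.87, limma adjusted p = 2.8e-05). Of 17 proximal tubule enzymes and related genes, 5 were tested, 1 rose and 3 fell (median log2 change -0.21). FOLR1, the folate receptor of the apical membrane, averaged 5.11 FPKM in shCBX7 cells and 10.3 FPKM in sh control cells (log2 change -0.88, limma adjusted p = 0.000195). MIOX, which opens the inositol ring, averaged 3.60 FPKM in shCBX7 cells and 2.76 FPKM in sh control cells (log2 change 0.30, limma adjusted p = 0.0253). Of 14 aquaporins only AQP11 was tested in 786-O, and it was not called (log2 change -0.09, limma adjusted p = 0.62).

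Beyond the proximal tubule, 1 of 22 genes of the loop, distal tubule and collecting duct was tested. This was CDH16, the kidney-specific cadherin, at 0.303, 0.279 and 0.338 FPKM in shCBX7 libraries and 1.18, 0.85 and 0.994 FPKM in sh control libraries. It passed the filter through the control arm alone, so its arms, which did not overlap, are given without a test. Of 14 genes of tubule injury and dedifferentiation, 13 were tested, 7 rose and 3 fell (median log2 change 0.33), against 24.7% higher and 26.2% lower of all genes tested. SPP1 (osteopontin) averaged 450 FPKM in shCBX7 cells and 252 FPKM in sh control cells (log2 change 0.83, limma adjusted p = 7.66e-06). SOX9, a factor of repairing tubules, averaged 8.15 FPKM in shCBX7 cells and 4.67 FPKM in sh control cells (log2 change 0.69, limma adjusted p = 4.54e-05). The 3 that fell were CD24, HAVCR1 and CDH6. HAVCR1 (KIM-1), the classical marker of injured proximal tubule, averaged 7.19 FPKM in shCBX7 cells and 15.6 FPKM in sh control cells (log2 change -1.02, limma adjusted p = 1.64e-05). CD24, whose reads may be split with its copies, averaged 141 FPKM in shCBX7 cells and 308 FPKM in sh control cells (log2 change -1.13, limma adjusted p = 3.41e-06). CDH6 averaged 7.47 FPKM in shCBX7 cells and 13.4 FPKM in sh control cells (log2 change -0.77, limma adjusted p = 2.8e-05).

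**Figure D5:**
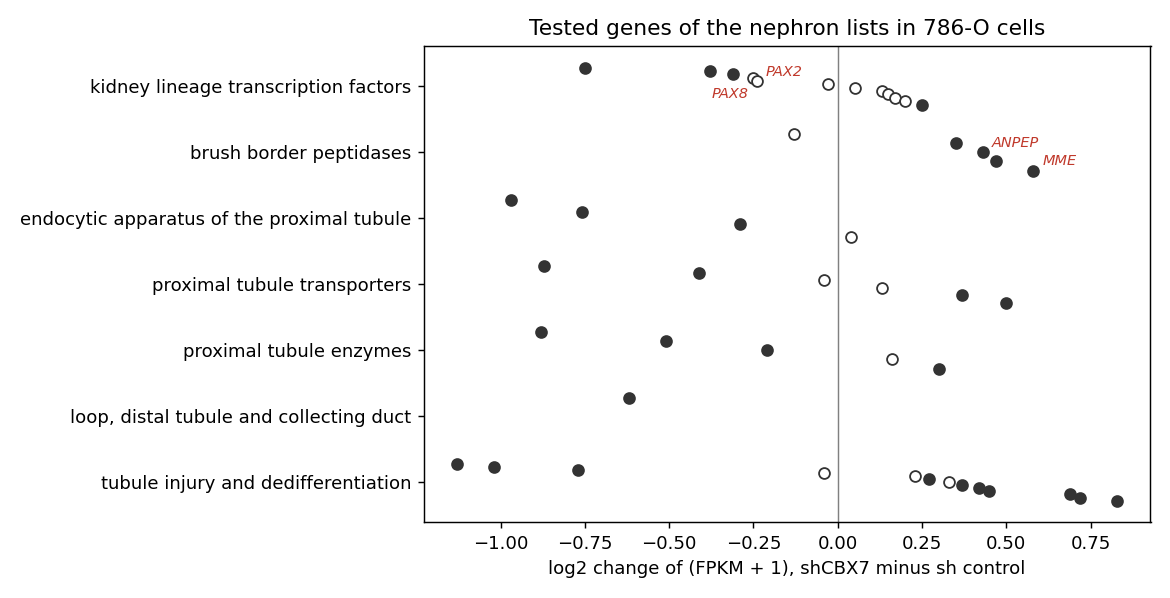
Log2 change of FPKM + 1 in 786-O (shCBX7 minus sh control, x axis) for every tested gene of 7 nephron lists (y axis). Filled points have a limma adjusted p under 0.05, and the members are labelled in red; CDH16, the point in the loop and distal list, passed the filter through sh control alone. The 4 filled brush border peptidases lie between 0.35 and 0.58, while the filled endocytic genes lie between -0.97 and -0.29.

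The counts of the same lists in 5637 stand against 44.5% called of all genes tested, 24.4% higher and 20.2% lower. No brush border peptidase was called there (0 of 2 tested, with a median log2 change of -0.05), and of the 6 tested endocytic genes 0 rose and 1 fell. This was AMN, the membrane anchor of CUBN, at 1.42 FPKM in shCBX7 cells and 1.92 FPKM in sh control cells (log2 change -0.27, limma adjusted p = 0.00329). Transcription factors gave 2 higher and 1 lower of 7 tested, PAX partners 3 higher and 0 lower of 9, transporters 1 higher and 3 lower of 8, enzymes 1 higher and 2 lower of 4, and injury genes 4 higher and 0 lower of 8. The PAX family gave 0 higher and 1 lower of 2 tested, the M1 aminopeptidases 2 higher and 3 lower of 6, and the LDL receptor family 0 higher and 6 lower of 11. The 6 tested genes of the loop, distal tubule and collecting duct gave 0 higher and 3 lower, the water channel AQP3 and the sodium channel subunits SCNN1A and SCNN1G. AQP3 averaged 23.3 FPKM in shCBX7 cells and 36.4 FPKM in sh control cells (log2 change -0.62, limma adjusted p = 5.33e-05), and of the 2 tested aquaporins it was the 1 that fell.

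The genes whose centred log2 values over the 6 libraries of 786-O lay nearest to each member were found among 10757 to 10758 candidates by Euclidean distance. FLII (distance 0.0354) and MRPL21 (0.045) were nearest to PAX8, and RPTOR (0.0819) and DEAF1 (0.0883) to PAX2. CAP1 (0.0607) and AGA (0.0608) were nearest to MME, and EZH1 (0.0277) and ZNF25 (0.0407) to ANPEP.

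Markers of other cells were summed in 786-O. Leukocyte markers, 9 genes of which 3 were at 0 in every library, summed to 9.26 to 10.2 FPKM in shCBX7 libraries and 17.5 to 21.8 FPKM in sh control libraries. LAPTM5 made up most of that sum, at 8.07 FPKM in shCBX7 cells and 17.5 FPKM in sh control cells, while the defining leukocyte gene PTPRC was at 0. Urothelial markers (11 genes, 2 at 0 throughout) summed to 13.0 to 15.2 FPKM in shCBX7 libraries and 8.34 to 9.84 FPKM in sh control libraries. PPARG carried that rise, at 11.8 FPKM in shCBX7 cells and 6.56 FPKM in sh control cells, while GATA3 averaged 0.573 FPKM in shCBX7 cells and 0.865 FPKM in sh control cells and the median over the 3 tested genes was -0.08. Podocyte markers (9 genes, 2 at 0 throughout) summed to 36.2 to 38.0 FPKM in shCBX7 libraries and 31.0 to 32.6 FPKM in sh control libraries, with PODXL at 5.03 FPKM in shCBX7 cells and 1.15 FPKM in sh control cells. SYNPO made up most of that sum, at 28.9 FPKM in shCBX7 cells and 26.3 FPKM in sh control cells. WT1 went the other way, at 2.65 FPKM in shCBX7 cells and 3.76 FPKM in sh control cells. Fibroblast markers (8 genes) summed to 3.03 to 3.59 FPKM in shCBX7 libraries and 2.48 to 2.83 FPKM in sh control libraries. LUM made up most of it, at 2.76 FPKM in shCBX7 cells and 1.66 FPKM in sh control cells, while COL1A1 averaged 0.159 FPKM in shCBX7 cells and 0.327 FPKM in sh control cells. Endothelial markers (6 genes) summed to 0.766 to 0.976 FPKM in shCBX7 libraries and 0.515 to 0.705 FPKM in sh control libraries, with CDH5 at 0, and the 4 erythroid markers were at 0. These sums moved with the arms, and their part in the member values was not tested.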

How the data were processed

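Gene expression was measured by RNA-seq in 12 libraries, 3 per arm in each of 2 lines, grouped by the sample titles with the cell line and genotype labels. The authors deposited FPKM values in a separate table per line, per the file headers. Libraries were made with a directional kit, per the labels' protocols; which aligner, counter and strand setting were used is not given in the sources used here. The submitters' processing notes name a mouse build although the samples are human. The 5637 control columns could be tied to the arm but not to a single sample, and columns left without a group numbered 0. All members matched GENCODE release 29 in position.

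FPKM were turned into log2(FPKM + 1). Genes averaging 0.5 FPKM or more over the libraries of a comparison were tested with limma 3.58.1 in R 4.3.3 (lmFit, then eBayes with its trend option), and genes with a Benjamini-Hochberg adjusted p under 0.05, over all genes tested, were called. Lines were compared by an interaction term over 12 libraries. Exact permutation tests (two-sided, scipy 1.17.1) were run for single genes. The scripts were tested on simulated data. Low FPKM were whole multiples of 1 read (tolerance 0.01) for 28083 of 29890 genes (94.0%) in 5637 and for all 58735 in 786-O, which gave the reads; limma voom on those reads called 7248 of 13220 genes in 786-O, and in 5637 it called 5808 of 11624. Other alternatives were a pseudocount of 0.1, no filter or a stricter one, median centring, quantile normalization, no trend, a replicate block and each library left out.

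The members and the 13 other gene lists and 6 marker lists were chosen with earlier results of these data known. The rule for names takes CBX7, the members, up to 5 called genes per list with a mean of at least 1 FPKM in 786-O (3 in 5637), uncalled relatives, and the 2 nearest genes per tested member. CUBN, CDH16, PAX9, PTPRC, CDH5, COL1A1, GATA3 and others named beside a count fall outside it and were chosen after their values were seen. A few list genes enter the counts but are not reported here by name.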

Additional observations from a re-analysis of the deposited data

Results flagged for a closer look

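MME changed differently in the 2 lines by the limma interaction term over 12 libraries. Its log2 change in 786-O minus that in 5637 was 0.57 (95% interval 0.451 to 0.694, limma adjusted p = 5.53e-06), with changes of 0.58 in 786-O and 0.0043 in 5637. Over all genes tested for this difference, 53.3% were called. CBX7 stood at 61.0% of its control mean in 786-O and 83.3% in 5637, and the part of this in the MME difference was not tested. The interaction term was -0.37 for PAX8 and 0.43 for ANPEP. Both averaged under 0.2 FPKM in both arms of 5637 and entered the fit through their level in 786-O. On the FPKM + 1 scale these values mostly repeat the changes there (-0.31 and 0.43) and are given as values only. PAX8 in 5637 stood at 148% of the control mean, a log2 change of 0.06 on the FPKM + 1 scale.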

How the results depend on the processing

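Counts of called genes stayed within 1.5 times the reported count, at 5704 to 7248 in 786-O and 4677 to 5808 in 5637 over 14 alternatives each, and at 6247 to 7130 for the difference between lines over 18. PAX8, MME, ANPEP and CBX7 in 786-O kept direction and call in all 14. PAX2 was called with quantile normalization (log2 change -0.277, limma adjusted p = 0.0304), without the mean-variance trend (-0.24, limma adjusted p = 0.031), by voom (-0.478, limma adjusted p = 0.0188) and without the sh control library numbered 3; with single libraries left out its change ran from -0.298 to -0.196. A filter at a mean of 1 FPKM drops PAX2. MME in 5637, never called, turned negative with quantile normalization (-0.0104) and median centring (-0.0098), and ran from -0.00702 to 0.016 with single libraries left out; the cause was not tested. The PAX8 difference between lines was -0.639 with a pseudocount of 0.1, against -0.37 as reported. The ANPEP difference was 0.405 there, against 0.43 as reported. The CBX7 difference between lines was -0.22 (limma adjusted p = 0.0268) and missed the threshold in 6 of 18 alternatives at a like size (-0.206 to -0.186).

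Same-numbered libraries of the arms had correlated deviations of 0.057 to 0.0833 in 786-O, each pair above any other number, and of -0.0314 to 0.0234 in 5637. The labels state no pairing, so the main fit left the numbers out, and a replicate block was run beside it. With the number as a replicate block, 6723 genes were called in 786-O and 4942 in 5637, and PAX8 (limma adjusted p = 0.00345), MME (0.00145) and ANPEP (0.000686) in 786-O kept their calls while PAX2 (0.0858) stayed uncalled. Low read numbers limit AQP1 and LRP2 in 786-O and the members other than MME in 5637.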
